A study of Mus musculus with 2 samples.

Results

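The genes described here encode the major histocompatibility complex (MHC) and the interferon pathway, 36 genes chosen by symbol from the 55536 annotated genes in the deposited tables. Total RNA sequencing measured them in left cerebral cortex from female mice of strain label B6CASTF1/J, first-generation hybrids of C57BL/6 and CAST, at the age of 25 days. The study holds 1 group of 2 libraries, replicates 1 and 2, with 300 ng of input RNA each and synthetic ERCC controls added. The labels name no treatment and no engineered allele, so the comparisons open to this design are between genes within a library, between the animals, and between the 2 deposited quantifications of each library. The labels number the animals separately but cite a single donor identifier for both, so the spread between libraries may be technical only. Values are deposited alignment-based TPM (a transcript level scaled per length and per library) unless another unit is named, with means ± SD over the 2 libraries, and coordinates are on mm10.

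MHC class I molecules present peptides from inside the cell to CD8 T cells and consist of a heavy chain and the shared light chain beta-2-microglobulin. Class II molecules present peptides from outside the cell and are made mainly by professional antigen-presenting cells. Type I interferons bind a receptor of a pair of chains, and the signal reaches the nucleus through STAT and IRF proteins, which switch on antiviral genes. Healthy neurons are known for low class I levels, and in the uninfected brain microglia are the main parenchymal cells that can take up antigen presentation. The list was split by role into 6 class I chains, 3 genes of class I peptide loading, 4 class II genes counting the invariant chain, 2 transactivators, 2 receptor chains, 6 genes for a sensor and transcription factors, and 13 interferon-induced genes.

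Promoters of these genes often hold the interferon-stimulated response element, the site bound by IRF proteins and the STAT-IRF9 complex. Its core, searched here as GAAA, any 2 bases, and GAAA again on both strands in RefSeq promoter windows of 250 bases before to 50 after a gene's start (assembly GRCm38.p6), was present in 14 of the 28 listed genes with a window (50%) and in 1079 of 27025 genes overall (3.99%). Among the induced genes 9 of 10 with a window held it. Ifit2 was the exception. Windows were not matched for Tap2, H2-Ab1, Cd74, Nlrc5, Ciita, Ifi27, Mx1 and Usp18. The letters TTCNNNGAA, the core of the interferon-gamma activated site, were found in 8 of 28 (28.6%), both receptor chains and Irf1 among them, against 9.55% of all genes. Both motifs stood in the windows of Ifitm3, Oas1a and Bst2. The stretches shown were chosen because their genes span the range of levels described below. Capitals mark this core or its reverse complement, overlapping matches merge into 1 run, and each stretch runs in the direction of transcription on the C57BL/6 reference.
B2m promoter: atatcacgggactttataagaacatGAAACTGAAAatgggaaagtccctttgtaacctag
H2-T22 promoter: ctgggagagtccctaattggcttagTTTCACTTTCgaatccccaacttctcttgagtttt
Stat2 promoter: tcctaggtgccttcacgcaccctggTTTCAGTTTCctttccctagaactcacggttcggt
Isg15 promoter: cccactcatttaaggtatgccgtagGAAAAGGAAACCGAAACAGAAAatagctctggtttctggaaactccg
Ifit1 promoter: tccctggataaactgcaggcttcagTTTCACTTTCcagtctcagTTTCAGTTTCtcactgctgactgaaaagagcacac
Ifit3 promoter: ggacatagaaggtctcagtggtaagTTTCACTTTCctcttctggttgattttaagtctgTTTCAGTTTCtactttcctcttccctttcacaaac
Oas1a promoter: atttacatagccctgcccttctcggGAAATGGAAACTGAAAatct
The B2m stretch lies at chr2:122147523-122147582 (plus strand) with its match 139 bases before the start, and the H2-T22 stretch at chr17:36042899-36042958 (minus strand) with its match 191 bases before the start. The Stat2 stretch is chr10:128270251-128270310 (plus strand), 222 bases before the start. Isg15 holds 3 overlapping matches 66 to 78 bases before the start in chr4:156200850-156200921 (minus strand). Ifit1 holds 2 matches 85 and 104 bases before the start in chr19:34640760-34640838 (plus strand), and Ifit3 holds 2 matches 122 and 156 bases before the start in chr19:34583348-34583441 (plus strand). Oas1a holds 2 overlapping matches 14 and 20 bases before the start in chr5:120907526-120907570 (minus strand). A match describes letters only, and the CAST sequence of these windows was not analysed here.

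The libraries held 31191535 and 27079699.9 expected counts over annotated genes, where an expected count is an estimate that divides reads matching several places. Cortical markers Slc17a7, Cux2 and Tbr1 were present, Slc17a7 at 596 TPM in replicate 1 and 639 TPM in replicate 2. All 8 microglial markers were detected, with summed TPM of 194 and 200. Of 6 border-macrophage markers 3 were detected, with summed TPM of 7.18 and 6.77. Among markers of dendritic and B cells, Ms4a1 had 0 and 3 alignment-based counts but 24.6 and 24.1 FASTQ-based counts, and Xcr1 0 and 1 but 7.46 and 14.9, while Flt3 was detected at 2.33 and 2.21 TPM. Of 5 T and NK markers only Trbc2 was detected. Nkg7 had no count in either table, and Cd3d had no alignment-based count but 20.2 and 25.3 FASTQ-based counts, so the near absence of some of these markers rests on the table used. Ttr, a choroid plexus marker, was 96.0 TPM in replicate 1 and 4.79 TPM in replicate 2. The other choroid plexus markers differed far less, Folr1 at 1.42 and 0.88 TPM and Kl at 1.39 and 1.00 TPM. No listed gene moved with Ttr by the 2-fold rule given below, but only 10 of the 36 reach the minimum level of that rule. Without the minimum, Isg15 was 2.45-fold higher in replicate 1, on 11 and 4 counts. In whole tissue, fewer cells of a type and less RNA per cell cannot be told apart.

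Of the 36 listed genes 24 were detected, which means that each library gave them at least 1 TPM (66.7%), against 58.7% of 22015 nuclear protein-coding genes. Above the middle detected gene ranked 5 of them, B2m, Ifnar1, Ifi27, Irf3 and Tapbp, and 1 when levels were taken as CPM (counts scaled to library size), which ignore length. By position, 11 lie on chromosome 17. Of those given below without coordinates, Ifih1 lies on chromosome 2, Gbp2 on 3, Isg15 on 4, Oas1a on 5, Usp18 on 6, Ifitm2, Ifitm3 and Irf7 on 7, Nlrc5 and Bst2 on 8, Irf1 on 11, Rsad2 on 12, Irf9 on 14, Ciita and Ifnar2 on 16 and the Ifit genes on 19. The median over the list was 2.25 TPM, which stands above 7.61% of the detected genes. By role, the median was highest for the receptor chains at 17.9 TPM and then for class I chains at 5.98, transcription factors and sensor at 3.98, peptide loading at 2.61, class II at 1.43 and induced genes at 0.73 TPM. The transactivators were lowest at 0.095 TPM. At the detection limit Bst2 lay just inside, at 1.00 and 1.90 TPM, and Tap1 just outside, at 0.77 and 1.07 TPM. By the posterior mean TPM of the same table Tap1, H2-Aa, Irf7 and Mx1 also reached 1 TPM in both libraries. In the FASTQ-based table Tap1, H2-Aa and Mx1 did, and Bst2 did not (0.90 and 2.82 TPM).

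**Figure D1:**
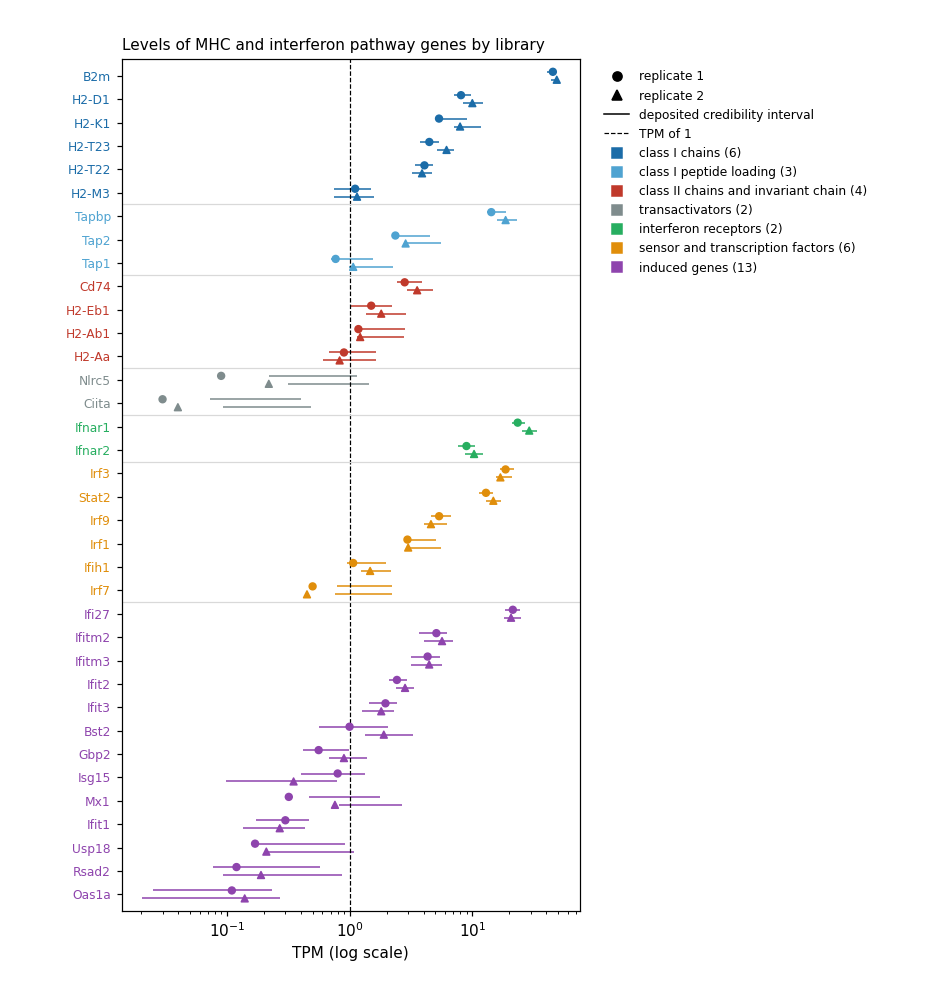
TPM (log scale) of the 36 genes by role; circles are replicate 1, triangles replicate 2 and lines the deposited credibility intervals of the same table, whose level is not stated. B2m is highest at 45.2 and 48.7 TPM and Ciita lowest at 0.03 and 0.04 TPM. Left of their own interval lie 8 genes in replicate 1 and 6 in replicate 2. Among them, above 1 TPM, are Irf1 in both libraries and H2-K1 and H2-Ab1 in replicate 1.

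**Figure D2:**
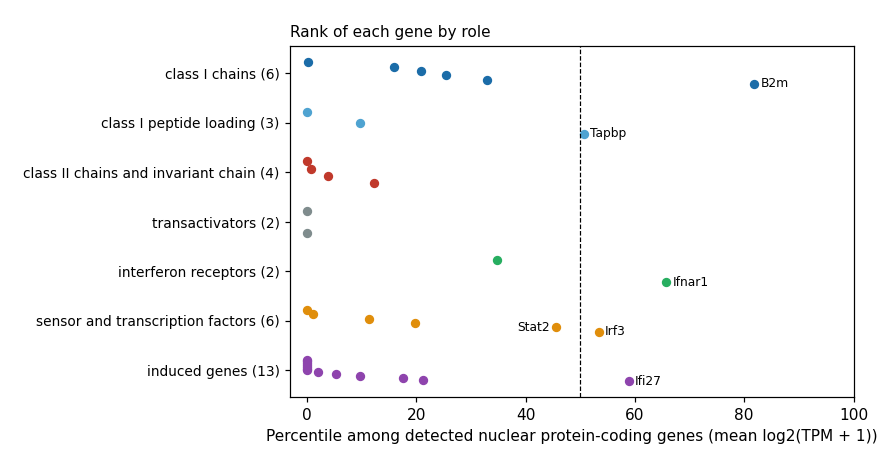
Percentile of each gene's mean log2(TPM + 1) among 12933 detected nuclear protein-coding genes, by role, with undetected genes included. Right of the dashed middle line are B2m, Ifnar1, Ifi27, Irf3 and Tapbp, and Stat2 lies just left of it at 45.6.

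By TPM, class I transcripts came mainly from the light chain. B2m, on chromosome 2 (122147686 to 122153083), had 45.2 TPM in replicate 1 and 48.7 TPM in replicate 2, from 716 and 647 counts, and stood at percentile 81.9. Of the classical heavy chains, which present peptides to CD8 T cells, H2-D1 (chromosome 17, 35262730 to 35267499) had 8.08 and 9.99 TPM. H2-K1 (chromosome 17, 33996017 to 34000347) had 5.35 and 7.94 TPM. H2-K1 over H2-D1 was -0.46 ± 0.19 on the log2 scale and -1.18 ± 0.05 by CPM. B2m exceeded H2-K1 in both libraries, by 2.85 ± 0.33 on the log2 scale, and exceeded the 5 heavy chains summed by 0.86 ± 0.16, a 1.81-fold ratio. Among non-classical chains, H2-T23, which encodes Qa-1, a ligand of NK receptors, had 4.46 and 6.16 TPM. H2-T22, a ligand of some gamma-delta T cells, had 4.07 and 3.89 TPM. Their order was the same in both libraries by TPM (0.40 ± 0.38 on the log2 scale) but not by CPM. H2-M3, which presents formylated peptides, had 1.11 and 1.15 TPM. By mean CPM, B2m was 23.4, H2-D1 9.70, H2-T23 4.97, H2-T22 4.94, H2-K1 4.27 and H2-M3 0.996. In that unit B2m did not exceed the heavy chains summed.

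Peptide loading genes were unequal. Tapbp (chromosome 17, 33915899 to 33929292), encoding tapasin, which holds class I at the peptide transporter, had 14.3 and 18.7 TPM. Both chains of the transporter were lower: Tap2 had 2.36 and 2.86 TPM, and Tap1 0.77 and 1.07 TPM. Tap1 over Tap2 was -1.52 ± 0.14 on the log2 scale, a ratio under 1 in both libraries. In the FASTQ-based table it was -1.75 in replicate 1 and -0.64 in replicate 2. Most alignment-based TPM of Tap2 came from a retained-intron transcript, at 2.02 and 2.58 TPM. Its leading coding transcript had 0.34 and 0.27 TPM, under that of Tap1 at 0.74 and 0.75 TPM. For these coding transcripts the order was thus reversed in the alignment-based table. In the FASTQ-based table the same Tap2 transcript took 30.5% and 24.7% of the gene's 3.72 and 4.61 TPM. That of Tap1 took 92.8% and 25.4% of 1.10 and 2.96 TPM, so the reversal was not seen there. Of 11 other annotated genes of peptide supply and loading 9 were detected, led by the chaperones Calr at 245 and 209 TPM and Canx at 189 and 177 TPM. The undetected ones were Psmb8, at 1.8 and 0.99 TPM, and Psmb9, at 0.23 and 0.92 TPM. Both encode immunoproteasome subunits, but a further such subunit on the list, Psmb10, was detected at 37.05 and 39.46 TPM. Of 14 other class I genes 3 were detected. H2-Ke6, which is named for its place in the MHC and encodes a steroid dehydrogenase, had 14.5 and 14.8 TPM. Fcgrt, the neonatal Fc receptor chain that also pairs with B2m, had 9.89 and 10.5 TPM.

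Class II genes were near the detection limit. Cd74 (chromosome 18, 60803848 to 60812652), the invariant chain that guards the class II groove, had 2.81 and 3.55 TPM from 70 and 73 counts. The chains H2-Eb1, H2-Ab1 and H2-Aa had 1.5 and 1.81, 1.18 and 1.22, and 0.90 and 0.83 TPM, each from 15 to 32 counts. Summed class I chains exceeded summed class II by 3.40 ± 0.02 on the log2 scale, 10.6-fold, and by 3.77-fold without B2m. Cd74 over H2-Ab1 was 1.396 ± 0.20 on the log2 scale, but 0.61 ± 0.94 with replicate 1 under 0 (-0.06) in the FASTQ-based table, and H2-Aa over H2-Ab1 was -0.47 ± 0.12. Of 12 class II accessory genes 7 were detected. The lysosomal proteases Lgmn, at 46.1 and 52.1 TPM, and Ctss, at 26.2 and 24.6 TPM, led them, and Ctss is also one of the microglial markers above. The undetected ones were H2-DMb1, H2-DMb2, H2-Oa, H2-Ob and H2-Eb2, with means of 0 to 0.61 TPM, and H2-Eb2 had no count in either library or table. Nlrc5, which switches on class I genes, had 8 and 9 counts (0.09 and 0.22 TPM), and Ciita, which switches on class II genes, had 4 and 4 counts (0.03 and 0.04 TPM). The posterior mean TPM in the same table was 0.63 and 0.83 for Nlrc5 and 0.22 and 0.26 for Ciita, so their levels rest on the estimate used. Nlrc5 over Ciita was 2.02 ± 0.62 on the log2 scale by TPM and 1.09 ± 0.12 by CPM, but in the FASTQ-based table it was 1.90 in replicate 1 and -0.29 in replicate 2.

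The type I interferon receptor was present, while no interferon gene looked at was detected. Ifnar1 (chromosome 16, 91485238 to 91507441) had 23.4 and 29.0 TPM from 1522 and 1370 counts, and Ifnar2 8.95 and 10.3 TPM. Ifnar1 over Ifnar2 was 1.44 ± 0.08 on the log2 scale. Of 11 listed type I and III interferon genes none was detected and 10 had no alignment-based count in either library. From the Ifna family the list holds only Ifna1, Ifna2, Ifna4, Ifna5 and Ifnab, and the rest of that family was not looked at. Ifnab had 0 and 1 counts in both tables, and Ifnk 0 and 1 in the FASTQ-based table. A count of 0 allows up to 3 counts, or 0.0974 CPM in replicate 1 and 0.109 CPM in replicate 2. Ifng also had no count, while its receptor chains Ifngr2, at 18.9 and 14.96 TPM, and Ifngr1, at 8.68 and 9.76 TPM, were detected. Of 7 kinases and STATs 6 were detected, led by Jak1 at 53.2 and 52.6 TPM and Stat3 at 19.6 and 17.6 TPM. Of 10 negative regulators 8 were detected, led by Adar, an RNA-editing enzyme that limits sensing of self RNA, at 61.0 and 63.1 TPM, and Ptpn11, a phosphatase, at 39.7 and 41.6 TPM.

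Irf3 and Stat2 led the listed transcription factors, and Irf7 was lowest of them. Irf3 came first by TPM and Stat2 by CPM (a mean of 21.8, beside 10.1 for Irf3). Irf3 (chromosome 7, 44997648 to 45002848), which waits in the cytoplasm to be activated, had 18.6 and 16.9 TPM, and Irf7, which amplifies the response, had 0.50 and 0.45 TPM. Irf3 over Irf7 was 5.23 ± 0.01 on the log2 scale, 37.4-fold, and 22.8-fold by CPM. Retained-intron transcripts took 76.5% and 75.3% of Irf3's TPM. Irf7's TPM lay below its own credibility interval in both libraries. Its posterior mean TPM was 1.45 in each, beside 19.4 and 18.2 for Irf3, so the size of this ratio also rests on the estimate used. Stat2 (chromosome 10, 128270559 to 128292849) had 12.9 and 14.8 TPM, and its partner Irf9 5.36 and 4.60 TPM, a log2 ratio of Irf9 over Stat2 of -1.48 ± 0.30. Irf1, which drives many interferon-gamma responses, had 2.96 and 3.00 TPM. The cytosolic sensor of double-stranded RNA, Ifih1, had 1.07 and 1.47 TPM. Among 15 other annotated sensors and adaptors 11 were detected, led by Traf3 at 26.8 and 31.04 TPM and the kinase Tbk1 at 21.6 and 23.8 TPM. Irf2, at 22.7 and 27.8 TPM, and Irf8, at 2.53 and 3.36 TPM, led the 3 detected of 5 other IRF genes.

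Induced genes were mostly low, with Ifi27 apart by TPM but less so by CPM (a mean of 8.27, beside 6.41 for Ifit2). Retained-intron transcripts took 70.55% and 56.41% of Ifi27's TPM. Ifi27 (chromosome 12, 103434211 to 103440239), which encodes a small hydrophobic protein, had 21.3 and 20.6 TPM from 250 and 231 counts, while the other 12 had means of 0.125 to 5.38 TPM. The membrane proteins Ifitm2 and Ifitm3, which block virus entry, had 5.09 and 5.66 TPM and 4.32 and 4.45 TPM, with Ifitm3 over Ifitm2 at -0.29 ± 0.08 on the log2 scale. Within the Ifit family, which binds viral RNA, Ifit2 had 2.43 and 2.83 TPM, Ifit3 1.96 and 1.81 TPM and Ifit1 0.30 and 0.27 TPM. Ifit2 over Ifit1 was 3.20 ± 0.26 on the log2 scale, 9.21-fold. Of the 12 gene pairs set side by side, 8 differed at least 2-fold in both libraries by TPM. Bst2, or tetherin, had 1.00 and 1.90 TPM. Undetected beside Ifit1 were Gbp2 (0.56 and 0.90 TPM), the ubiquitin-like Isg15 (0.80 and 0.35), Mx1 (0.32 and 0.76), Usp18 (0.17 and 0.21), Rsad2 (0.12 and 0.19) and Oas1a (0.11 and 0.14). The call for Mx1 rests on the estimate used. Its posterior mean TPM was 1.08 and 1.70, and its FASTQ-based TPM 1.04 and 1.75. Of 39 other induced genes 12 were detected, with a median of 0.72 TPM close to the 0.73 TPM of the listed ones. Cmpk2, a mitochondrial nucleotide kinase, at 8.82 and 10.2 TPM, and Samhd1, a dNTP hydrolase, at 5.40 and 6.16 TPM, led them, and Ifi44l, Oasl1 and Cxcl9 had no alignment-based count in either library. The motif-bearing promoters printed above belong to genes from B2m at 46.9 TPM to Oas1a at 0.125 TPM.

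The animals were compared by CPM, scaled with edgeR's TMM factors. A single library per animal gives no p-value, and an exact sign-flip test of 2 libraries cannot go below p = 0.5. Of the 10 listed genes with a mean CPM of at least 5, none differed 2-fold, against 0.256% of 11721 genes, and none differed 1.5-fold, against 1.52%. Without the minimum 2 of 36 differed 2-fold, Isg15 (11 and 4 counts) and Bst2 (12 and 23 counts), against 23.8% of all genes. For Isg15 the ratio of replicate 1 over replicate 2 was 2.45 with an exact 95% counting interval of 0.726 to 10.5, and for Bst2 it was 0.465 with an interval of 0.211 to 0.973. Bst2 and H2-T23, at 0.783 (0.614 to 0.990), were the 2 listed genes whose interval left out 1, and both are among the 24 detected, against 33.2% of detected genes. Of the 24 detected, 8 were higher in replicate 1, against 59.1% of detected genes, with a median ratio of 0.969 against 1.02. The credibility intervals of TPM were apart for none of them, against 11%. Intervals are wider for genes with few counts, and these shares were not matched for level. None of the 127 annotated genes on the pathway lists differed 2-fold at a mean CPM of at least 5, a level that 39 of them reached.

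**Figure D3:**
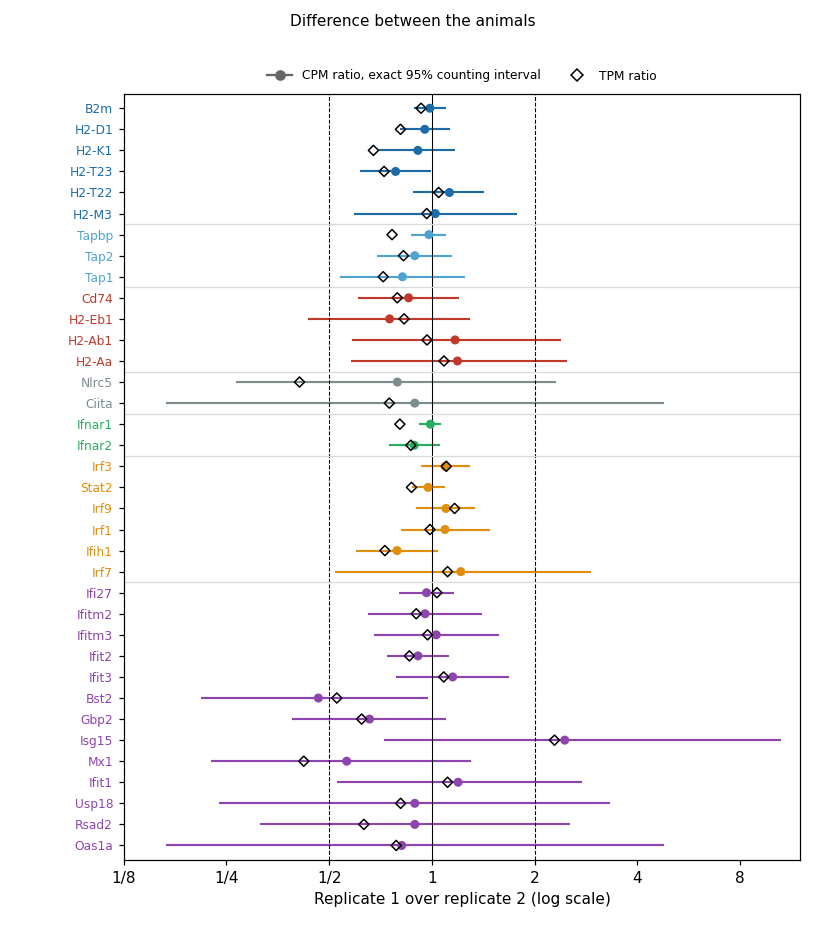
Replicate 1 over replicate 2 on a log scale for each gene, by role; filled points are CPM ratios with exact 95% counting intervals and open diamonds are TPM ratios. Bst2 at 0.465 and Isg15 at 2.45 lie outside the dashed 2-fold lines, both on few counts.

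Between the animals, TPM and CPM gave unequal ratios for some genes. H2-K1 differed between the animals by -0.57 on the log2 scale in TPM and by -0.14 in CPM. Its retained-intron transcript H2-K1-215, 457 bases long, took 29.6% and 34.0% of the gene's TPM from 11.8 and 16.9 counts, and 0% and 3.53% in the FASTQ-based table. Another retained-intron transcript of H2-K1, 504 bases long, took 0% and 13.5%, and a coding one of 1619 bases took 19.3% and 4.85%. Tapbp differed by -0.39 in TPM and -0.03 in CPM, and Ifnar1 by -0.31 and -0.01. For Tapbp the 367-base transcript Tapbp-208 took 18.1% and 32.1% from 14.4 and 28.0 counts, of 593.9 and 540.1 for the gene. Ifnar1-204, 415 bases long, took 8.45% and 16.4% of Ifnar1 from 12.99 and 26.3 counts. Neither Tapbp-208 nor Ifnar1-204 had any share in the FASTQ-based table. Ifi27, with the 527-base Ifi27-209 at 39.3% and 32.1%, differed by 0.05 in TPM and -0.05 in CPM. Whether short transcripts go with such gaps was not tested. A log2 gap of at least 0.5 between the TPM and the CPM ratio occurred in none of the 24 detected genes, against 1.52%, and in Nlrc5 among the rest.

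Transcript classes differed between the genes. Of the 28 genes with several annotated transcripts, 19 had a single leader across the libraries and 13 across the tables as well. Transcripts annotated as coding gave under 50% of the TPM in 5 of the 24 detected genes (20.8%), against 10.5% of detected genes, and retained-intron transcripts at least 50% in 4 (16.7%), against 3.22%. Those 4 were Tap2, where Tap2-202 alone took 88.1 ± 3.4%, Irf3 with 75.9 ± 0.83%, Ifi27 with 63.5 ± 9.998% and Stat2 with 52.5 ± 3.6% over their retained-intron transcripts. The fifth was H2-Eb1, whose coding share was 0% and 29.6%. By the FASTQ-based table the coding share was 32.0% for Tap2, 40.7% for Irf3, 53.1% for Ifi27 and 50.6% for Stat2, so the calls for Ifi27 and Stat2 rest on the table used. In replicate 1 of the alignment-based table Stat2 was also at 50.1% coding and 49.9% retained intron, on the other side of the limit. Total RNA holds unspliced nuclear RNA as well as messenger RNA, and its part in these shares was not tested. For Ifnar2, Ifnar2-203 led with 58.8 ± 2.7%.

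**Figure D4:**
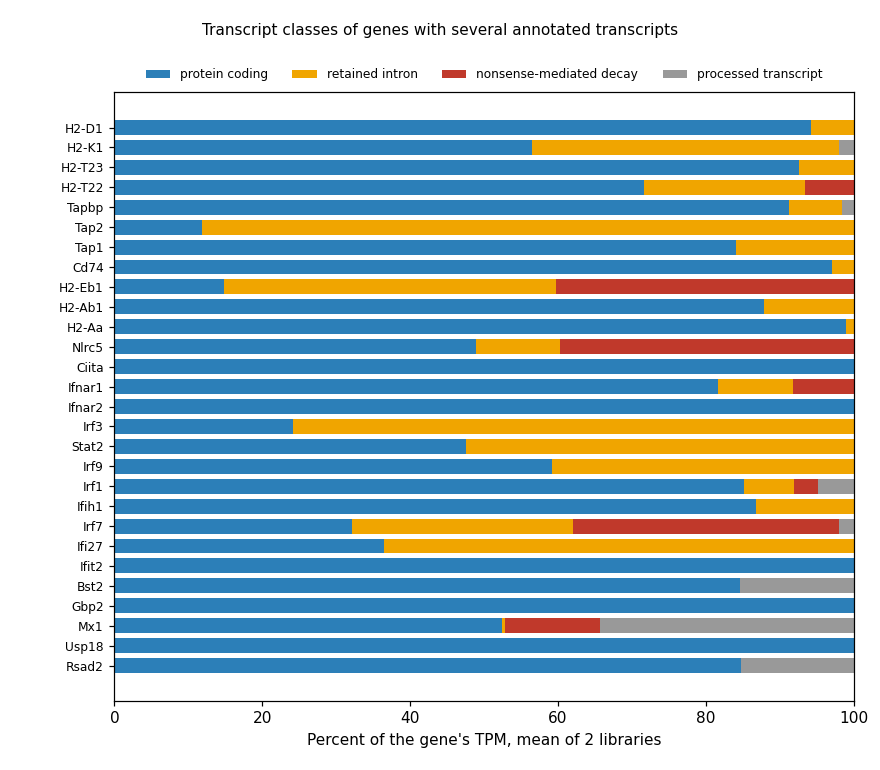
Share of each gene's alignment-based TPM by annotated transcript class, mean of 2 libraries, for the 28 genes with several transcripts. Retained-intron transcripts take the larger part of Tap2 (88.1%), Irf3 (75.9%), Ifi27 (63.5%) and Stat2 (52.5%).

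MHC genes are polymorphic and many have near copies, and the hybrid's CAST reads were placed on the C57BL/6 reference mm10. The deposited tables give no counts per allele, so the loss of CAST reads was not tested. The share of 50-base stretches of a gene's transcripts that another annotated gene also holds was over 10% for 7 genes: Oas1a (57.6%, Oas1g), Ifit3 (51.2%, Ifit3b), Ifitm2 (48.5%, mainly Gm45717), H2-T22 (34.5%, mainly H2-T10), H2-T23 (13.6%), H2-D1 (12.8%) and Ifitm3 (10.02%). H2-K1 had 9.63%, shared with 24 genes, and 15 genes had none. Reads could be divided between such copies, so these counts are estimates. Ifit3 had 67.1 and 52.0 counts beside 32.9 and 20.99 for Ifit3b, and H2-T22 had 161 and 128 beside 8.64 and 3.22 for H2-T10. The deposited posterior SD of the count was 3.86 and 2.99 for Ifit3, 1.99 and 1.66 for H2-T22 and 1.31 and 1.16 for Ifitm2. How far that SD covers reads divided between copies was not tested. Oas1a had 4 and 4.37 counts beside 0 and 1.63 for Oas1g. Ifitm2 had 58.9 and 55.0 counts, beside none for Gm45717. Ifitm1, which shares no 50-base stretch with Ifitm2, had 7 and 15. Other named relatives had their own counts: Ifit1bl1 35 and 32, Ifi27l2a 5 and 7, Oas1b 6 and 6, and Gbp2b 0 and 1.

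The alignment-based and FASTQ-based counts were compared by a 1.5-fold difference in the same direction in both libraries with at least 10 counts. Of the 30 listed genes with enough counts 2 differed (6.67%), against 9.36% of 15358 genes, and 5 did when either library was taken alone. Among them 1 was higher in the alignment-based table, Ifitm2, with ratios of 1.78 and 1.62, against 1.01% of all. Mx1 alone was higher in the FASTQ-based table, against 8.35%. Mx1 (chromosome 16, 97447035 to 97462907), a GTPase that blocks influenza virus in mice with an intact gene, had 10.3 and 16.2 alignment-based counts and 44 and 62.4 FASTQ-based counts. The transcript that led it in the FASTQ-based table, Mx1-203, annotated as a target of nonsense-mediated decay, took 93.3% and 63.6% there and 0% in the alignment-based table. Its relative Mx2 had 66.8 and 60.8 alignment-based counts, close to its 73 and 70.8 FASTQ-based counts. B2m, which shares no 50-base stretch, had ratios of 1.45 and 1.35, and Ifitm3 1.93 and 1.45. H2-T23 had 0.726 and 0.770. For H2-K1 (0.938 and 0.940) and H2-D1 (0.966 and 1.02) the tables were near each other.

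Of the 93 pathway genes with enough counts 14 were higher in the FASTQ-based table (15.1%), against 8.35% of all genes, and none in the alignment-based one, against 1.01%. Among them were 4 of the 9 other class I genes with enough counts, all of the Q region. H2-Q4 had 23.2 and 16.1 alignment-based counts against 96.1 and 103.7 FASTQ-based counts, and H2-Q7 7.06 and 5.73 against 68.8 and 61.2. H2-Q6 had 2.35 and 0 against 23.1 and 18.7, and H2-Q10 10.2 and 3.75 against 35.1 and 24.2. Another 8 were induced genes: Sp100, Ifi204, Gbp5, Cxcl9, Gbp4, Oas3, Oas1b and Iigp1. The sensors Cgas and Eif2ak2 were the remaining 2. Over the stretch of chromosome 17 from Tapbp to H2-M3 (33915899 to 37274484), which holds 11 of the listed genes, 9 of 109 protein-coding genes were higher in the FASTQ-based table (8.26%), near the 8.35% of all genes, and none of them is listed. The median ratio there was 0.966 and 0.953, against 0.938 and 0.926 over all protein-coding genes.

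**Figure D5:**
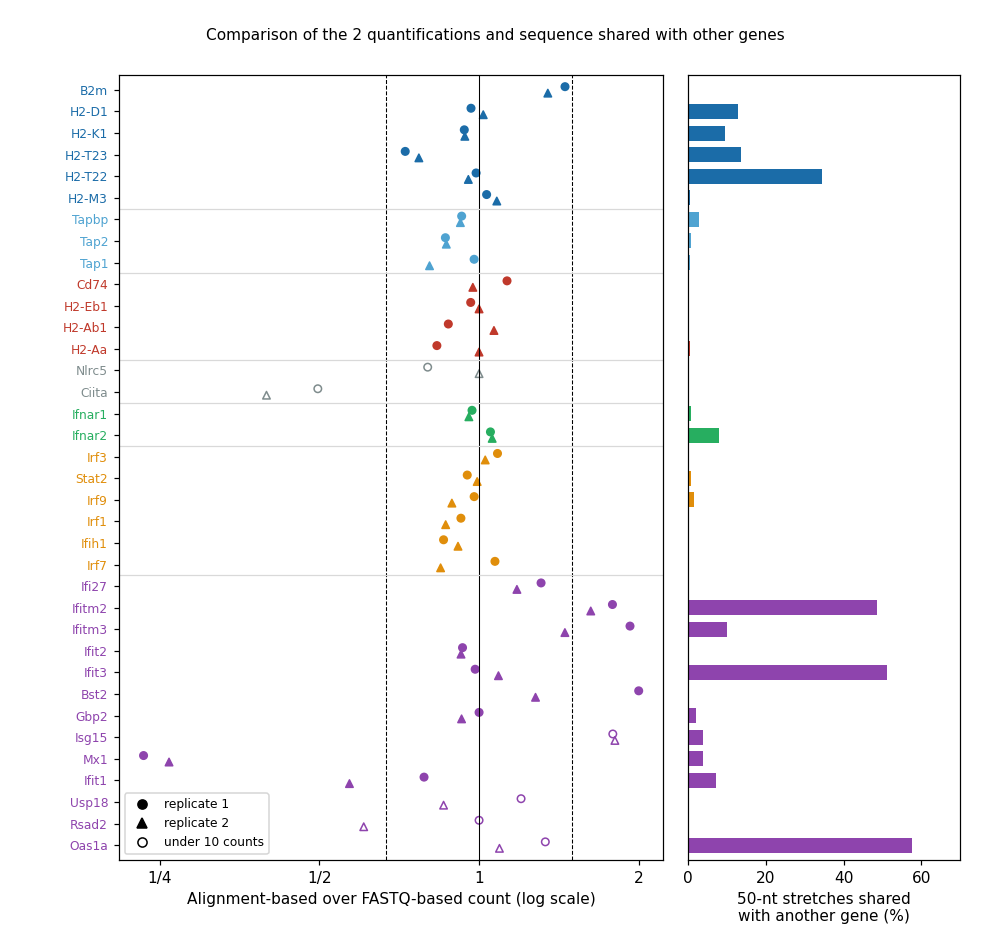
Left, alignment-based over FASTQ-based count (log scale) for each gene in replicate 1 (circles) and replicate 2 (triangles), open where a library has under 10 counts in both tables, with dashed lines at 1.5-fold. Right, percent of 50-base transcript stretches shared with another gene. Mx1 lies far left (0.233 and 0.260) with 3.91% shared, and Ifitm2 right (1.78 and 1.62) with 48.5% shared.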

How the data were processed

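Total RNA from 2 libraries of 1 group was measured. Per the file description that accompanies the deposit, the authors quantified reads on mm10 with GENCODE M21. For the aligner and quantifiers, neither name nor version is given in the sources used here. In the files, the deposited alignment-based gene table gives expected counts (estimates that need not be whole), TPM, posterior mean TPM, and credibility interval bounds and posterior SD of the count as further signal columns, per the file headers. The deposited alignment-based transcript table gives each transcript's percent of its gene's TPM. The deposited FASTQ-based table gives estimated counts and TPM per transcript, summed per gene here. Of 81881 entries, 55536 are annotated genes; 26248 that carry only a number were left out of library sizes and held 6.39e-06% and 1.81e-05% of counts. The FASTQ-based table lacks 86 of the genes.

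Expected counts were rounded for exact 95% (Clopper-Pearson) intervals of count ratios and for TMM factors (0.987 and 1.01) from edgeR 4.0.16 with limma 3.58.1 in R 4.3.3; DESeq2 1.42.0 size factors were an alternative. Intervals and floors cover counting error only. Levels are log2(TPM + 1), which understates differences of low genes. Other steps used scipy 1.17.1, pandas 2.3.3, numpy 2.4.6 and matplotlib 3.10.9 under Python 3.11.15. The animal comparison was tested on simulated data. The libraries differed beyond counting noise (chi-square per degree of freedom 7.84 over 20441 genes), so both were kept. Members, lists, pairs and rules were chosen with earlier results of these data known. Every listed gene is named, with the 2 most abundant genes of each pathway list, every named near copy and every pair; other genes were named after their values were seen. The list symbols Mb21d1, Sting1 and Nrdc and the copy H2-T9 are not in the annotation by that name. Alternatives tried were the other table, CPM, other detection limits, posterior means, rescaled TPM, other fold and count limits, leaving out each library, other stretch lengths and a shorter promoter window.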

Additional observations from a re-analysis of the deposited data

How the results depend on the processing

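No paired analysis was possible because the samples form 1 group. Across the main counts, levels and ratios, 52 alternative values stayed close to the reported one and 34 moved. Close meant within 1.5-fold for counts and within the SD over the 2 libraries for levels and ratios. Only class I over class II could change sign, and it did not, while counts and percentiles cannot be negative. Detected genes numbered 18 to 28 under every alternative, against 24. Genes above the middle one numbered 1 by CPM and 14 with no detection filter. In the FASTQ-based table the percentile of the role median was 28.65 for class I chains, 14.82 for peptide loading, 11.26 for class II, 21.57 for sensor and transcription factors and 1.829 for induced genes, and 5 pairs were 2-fold in both libraries, against 8. With undetected genes left out it was 26.38 for peptide loading, 3.812 for class II, 19.84 for sensor and transcription factors and 13.56 for induced genes, with no value for the transactivators, of which none is detected. With TPM rescaled over protein-coding genes it was 28.2 for class I chains, 15.72, 8.588, 21.04 and 2.425 for those same 4 roles in that order, and 53.21 for the receptors. With posterior mean TPM, added after seeing the data, it was 16.16, 6.329, 20.33 and 2.331 for the same 4 roles. Leaving out a library gave 9.953 to 12.12 for peptide loading, 2.946 to 4.056 for class II and 16.13 to 17.68 for sensor and transcription factors. Class I over class II on the log2 scale was 3.036 in the FASTQ-based table and 3.357 by CPM, also added later. Genes 2-fold apart between animals numbered 2 with no minimum. Genes 1.5-fold apart between tables numbered 2, against 1 at 2-fold, 4 with no minimum and 5 to 5 in a single library. Genes over 10% shared numbered 3 with stretches of 100 bases and 10 with 31 bases, added later. The cause of these shifts was not tested. Of the single pairs, 18 alternative values moved and 30 did not. For pairs, moved meant a shift of the mean by more than the SD over the 2 libraries. Leaving out a library cannot shift a pair, or class I over class II, by more than that SD, so those alternatives could only stay. In the FASTQ-based table the log2 ratio turned in 1 library for Cd74 over H2-Ab1 (-0.06, replicate 1) and Nlrc5 over Ciita (-0.29, replicate 2). By CPM it turned for H2-T23 over H2-T22 (-0.26, replicate 1). Counts of 3 or fewer per library cannot be told from 0.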
